A study of Mus musculus with 16 samples.

Results

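The NRF2 antioxidant genes are 10 mouse genes, most of which serve glutathione supply and use, the thioredoxin cycle, quinone reduction or haem breakdown. They are *Slc7a11*, *Gclc*, *Gclm*, *Gsr*, *Gpx2*, *Txnrd1*, *Srxn1*, *Nqo1*, *Hmox1* and *Osgin1*. They were taken by symbol from the 55359 genes of the files, and all 10 had enough counts to be tested in every comparison. RNA was sequenced from whole dorsal skin of 16 wild-type C57Bl/6 mice (C57Bl/6N in the study's results) at 8 weeks of age, when the hair follicles are labelled as resting (telogen). There were 4 groups of 4 mice, namely UVB males, no-UVB males, UVB females and no-UVB females, and the UVB mice had been irradiated 3 times. Their skin was taken at a single time, hours after the last exposure, as the study states. UVB is the middle band of ultraviolet light, which is absorbed mainly in the epidermis. No mouse carried an engineered allele, and the comparisons asked how skin of each sex responded to UVB and whether the responses of the sexes differed.

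NRF2 (gene *Nfe2l2*) is a transcription factor that KEAP1 holds in the cytoplasm and hands to a CUL3 ubiquitin ligase for destruction. Oxidants and electrophiles modify KEAP1, NRF2 then accumulates, pairs with small MAF proteins and binds antioxidant response elements in the DNA near its target genes, a site that BACH1 can occupy as a repressor. In skin, NRF2 is known for its part in keratinocyte defence against oxidants, which ultraviolet light generates.

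Each mouse gave 16495776 to 33404831 reads on genes (median 21767339). Keratinocyte genes were abundant in every mouse, as the tissue label requires. The summed level of 7 suprabasal keratinocyte markers was 7987 to 11455 CPM (read counts scaled to the size of the library) in no-UVB males and 20539 to 28035 in UVB males. The corresponding sums were 7164 to 10454 in no-UVB females and 12313 to 16400 in UVB females. The 8 hair shaft and inner root sheath markers of growing follicles summed to 12.5 to 29 CPM in every group but the no-UVB males, whose highest mouse reached 150 CPM. The 7 fibroblast markers, led by collagens, summed to 79556 to 86799 CPM in no-UVB males, against 19735 to 21000 in no-UVB females and at most 39651 in any UVB mouse, so that the male controls stood apart in this respect. Within the no-UVB males, replicates 1 and 2 stood apart from replicates 3 and 4, which was seen after the values were known. They had 80.8 and 88.7 CPM of the stress gene *Atf3* against 14.5 and 19.4, and 225 and 243 CPM of *Ddit4*, another stress gene, against 71.1 and 87.4. For results that leaving out the pair moved, values without it are also given.

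Promoter sequence is shown first for the members whose promoter window holds the core of the antioxidant response element or of the AP-1 site. It is also shown for *Slc7a11*, which had the largest response to UVB and holds neither. Other kinds of stress-responsive site were not searched. Windows of 250 bases before and 50 bases after a transcript start were taken from RefSeq (GRCm38.p6) and placed on GRCm39 by exact match. They are printed only outside the gene's own exons. Distances are counted from the start of the window's transcript, which can differ from the gene start given with each member. The table gave 9 windows for 7 of the members, and *Hmox1*, *Gclc* and *Gsr* have no entry in it. The core of the antioxidant response element was searched as TGACNNNGC and the core of the AP-1 site as TGACTCA, both on either strand. A stretch reading TGACTCA and then GC would count for both. The first was found in 12.4% of all 32851 windows and the second in 5.2%, with both in 0.9%. Capitals mark the matches, each sequence is given 5′ to 3′ on the strand of its gene, and these matches describe letters and do not show that a factor was bound.

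*Srxn1*, chr2:151947194-151947435 (GRCm39, plus strand), with AP-1 cores beginning 102 and 45 bases before the start:
Srxn1: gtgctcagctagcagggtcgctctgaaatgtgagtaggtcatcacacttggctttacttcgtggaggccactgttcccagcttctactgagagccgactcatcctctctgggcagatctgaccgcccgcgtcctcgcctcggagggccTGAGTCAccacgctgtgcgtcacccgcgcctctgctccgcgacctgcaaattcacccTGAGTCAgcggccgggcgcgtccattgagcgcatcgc
*Osgin1*, chr8:120163636-120163855 (plus strand), with an AP-1 core beginning 97 bases before the start of this window's transcript:
Osgin1: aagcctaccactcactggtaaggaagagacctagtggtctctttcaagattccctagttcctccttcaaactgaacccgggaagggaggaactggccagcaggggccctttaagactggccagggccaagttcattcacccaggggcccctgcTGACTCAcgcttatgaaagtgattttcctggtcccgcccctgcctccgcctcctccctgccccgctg
*Gclm*, chr3:122038956-122039125 (plus strand), with an antioxidant response element core beginning 134 bases before the start:
Gclm: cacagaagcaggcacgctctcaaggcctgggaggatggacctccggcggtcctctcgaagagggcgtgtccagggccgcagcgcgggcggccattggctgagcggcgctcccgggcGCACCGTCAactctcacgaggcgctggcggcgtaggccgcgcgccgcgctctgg
*Txnrd1*, chr10:82694790-82695012 (plus strand), 1 of 3 windows of this gene, with an antioxidant response element core beginning 92 bases before the start:
Txnrd1: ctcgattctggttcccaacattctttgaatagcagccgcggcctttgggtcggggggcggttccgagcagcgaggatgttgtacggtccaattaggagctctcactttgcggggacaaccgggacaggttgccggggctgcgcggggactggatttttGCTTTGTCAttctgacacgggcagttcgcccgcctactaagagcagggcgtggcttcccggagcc
*Slc7a11*, chr3:50398071-50398312 (minus strand), with neither core:
Slc7a11: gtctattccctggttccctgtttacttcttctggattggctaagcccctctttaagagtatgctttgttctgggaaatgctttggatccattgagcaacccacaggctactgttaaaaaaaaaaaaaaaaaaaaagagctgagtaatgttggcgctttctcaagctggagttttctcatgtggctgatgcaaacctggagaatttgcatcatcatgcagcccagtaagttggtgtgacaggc

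*Srxn1* also held an antioxidant response element core beginning 29 bases after its start, inside its exon, and was the only member with both cores in its window. The members that held a core thus included *Srxn1* and *Osgin1*, which rose in both sexes, and *Gclm* and *Txnrd1*, which passed the test in neither (values follow). The windows of *Nqo1* and *Gpx2* and the other windows of *Txnrd1* held neither core. Sequence outside the windows was not searched, so these genes may hold such a core further from the start.

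UVB males had higher expression of 5 of the 10 members than no-UVB males, and none was lower. Without no-UVB male replicates 1 and 2 they were 3 (*Srxn1*, *Slc7a11* and *Osgin1*), and 1, *Txnrd1*, was lower, where 24.2% of all genes were higher and 23.3% lower. The 5 were *Slc7a11*, *Srxn1*, *Osgin1*, *Hmox1* and *Gpx2*, called by edgeR's quasi-likelihood test where the *p* adjusted over all 16535 genes tested (Benjamini-Hochberg) was under 0.1. Over all genes, 29.0% were called higher in UVB males and 30.5% lower. With a further requirement of a log2 fold change past 1, *Srxn1* and *Slc7a11* remained, 2 of 10, against 4.08% of all genes. The values of the UVB and no-UVB mice did not overlap for *Srxn1*, *Slc7a11* and *Osgin1*, 3 of 10, where 22.9% of all genes were higher without overlap and 24.3% were lower without overlap. In females 2 of the 10 members were higher, *Srxn1* and *Osgin1*, and none was lower, against 12.8% and 10.6% of the 16883 genes tested. None of the members passed a log2 fold change of 1 in females, where 1.63% of all genes were higher past it, and only *Srxn1* was higher without overlap, against 11.1% of all genes. None was lower without overlap, against 10.1%. The absence of lower members was in edgeR's test, in which 9569 genes of the males and 5108 of the females had an unadjusted *p* under 0.05. DESeq2's Wald test also called no member lower in either sex. The split of all female calls depended on scaling, with 2162 genes higher and 1787 lower in this fit and 1737 higher and 2157 lower under upper quartile scaling. Under that scaling 3 members were higher in males and 1, *Gclc*, was lower.

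**Figure D1:**
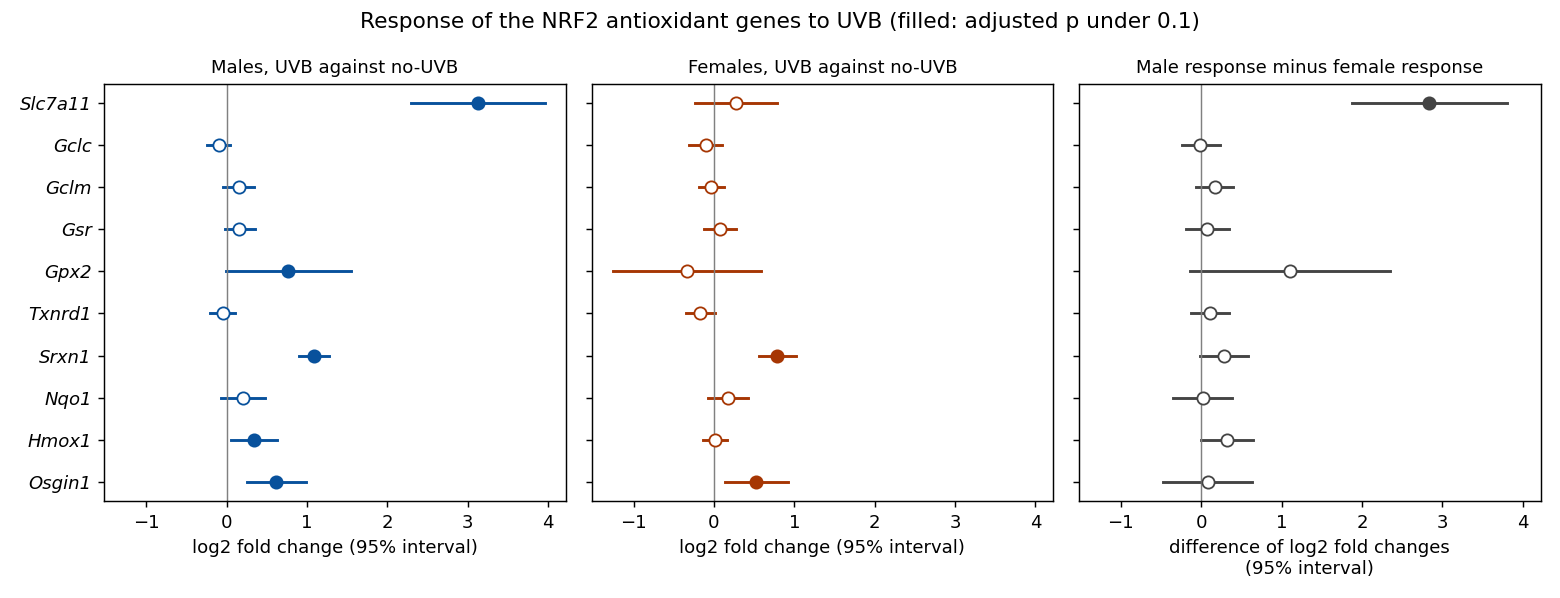
Fitted log2 fold change of each NRF2 antioxidant gene (x axis, with 95% intervals) for UVB against no-UVB males, UVB against no-UVB females, and the difference of the male and female response. Filled points passed an adjusted p under 0.1; *Slc7a11* lies at 3.13 in males and 0.28 in females, while *Srxn1* lies at 1.09 and 0.79.

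The median log2 fold change of the 10 members was 0.27 in males, where 8 lay above 0, beside a median of -0.02 over all genes, of which 47.9% lay above 0. The male median was 0.15, with 8 above 0, without no-UVB male replicates 1 and 2. In females the median of the members was 0.04, with 6 above 0, beside 0.00 over all genes, of which 50.4% lay above 0. The single members are described by role.

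*Slc7a11* (ENSMUSG00000027737.11, chromosome 3 of GRCm39 from 49846975 to 50398070, minus strand) encodes xCT, the cystine importer that feeds glutathione synthesis. In no-UVB males its 4 mice had 0.698, 0.552, 1.21 and 0.859 CPM. The UVB males had 8.43, 10.8, 6.12 and 3.59 CPM, from 69 to 271 reads per mouse. The no-UVB females had 1.17, 1.15, 1.18 and 0.858 CPM. The UVB females had 1.23, 1.01, 1.8 and 1.25 CPM, from 24 to 42 reads. Every UVB male stood above every other mouse, and the UVB females overlapped their controls. The gene rose 8.73-fold in males (95% interval 4.9 to 15.6), a log2 fold change of 3.13 (SE 0.373, adjusted *p* = 9.62e-05). Its log2 fold change in females was 0.28 (SE 0.228, 95% interval -0.23 to 0.78, adjusted *p* = 0.451). The difference of the responses was itself tested and was 2.84 on the log2 scale (SE 0.456, adjusted *p* = 0.00739). Each of these male and interaction calls was also made when any single mouse was left out, with the male log2 fold change between 2.89 and 3.40. With no-UVB male replicates 1 and 2 left out together, the male value was 2.80 (adjusted *p* = 0.00461) and the difference 2.51 (adjusted *p* = 0.0608). In whole tissue, more cells of a type and more RNA per cell cannot be told apart, for this gene and for those that follow.

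**Figure D2:**
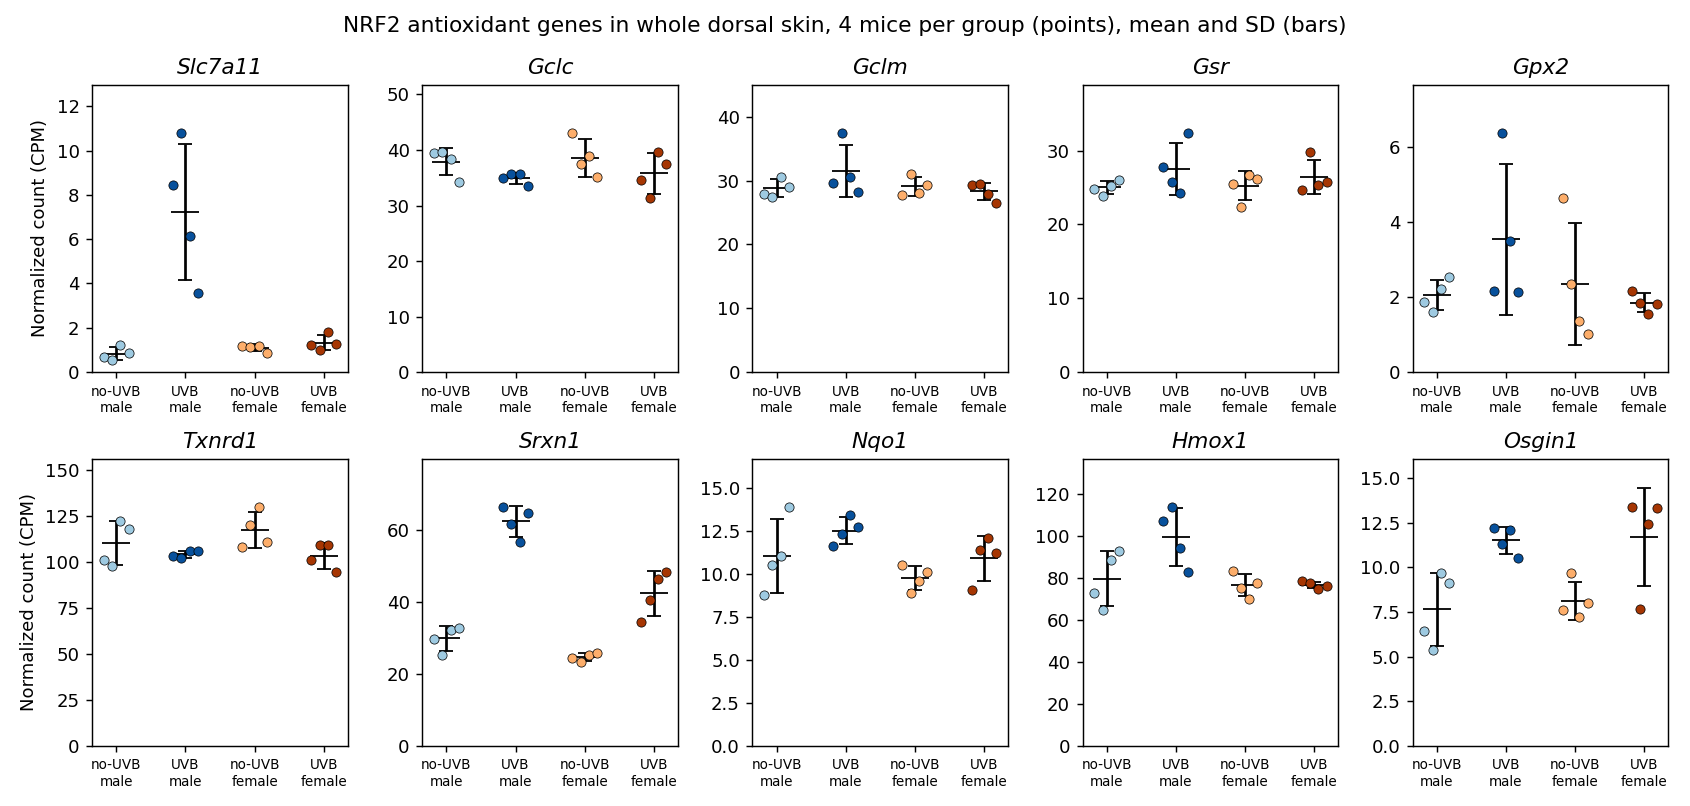
Normalized counts (y axis, CPM, TMM scaled, each panel from 0) of the 10 NRF2 antioxidant genes in each of the 16 mice, with mean and SD of 4 mice per group. *Slc7a11* is above 3 CPM only in the UVB males (3.59 to 10.8), and *Srxn1* steps up with UVB in both sexes.

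The partner of xCT in the plasma membrane, 4F2hc, is encoded by *Slc3a2* and was looked at after its values were seen. It rose by a log2 fold change of 0.29 in males (SE 0.072, adjusted *p* = 0.00526). In females its log2 fold change was 0.23 (SE 0.106, adjusted *p* = 0.179).

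*Gclc* and *Gclm* encode the catalytic and the modifier subunit of glutamate-cysteine ligase, which makes the first and limiting step of glutathione synthesis. *Gclc* (ENSMUSG00000032350.10, chromosome 9 from 77661797 to 77701770) had 39.5, 39.6, 38.3 and 34.3 CPM in no-UVB males and 35, 35.7, 35.6 and 33.5 CPM in UVB males. It had 43.1, 37.4, 39 and 35.1 CPM in no-UVB females and 34.6, 31.3, 39.7 and 37.4 CPM in UVB females, so that the groups overlapped in both sexes. Its log2 fold change was -0.10 in males (95% interval -0.24 to 0.04, adjusted *p* = 0.229) and -0.10 in females (-0.31 to 0.10, adjusted *p* = 0.478). *Gclm* (ENSMUSG00000028124.16, chromosome 3 from 122039126 to 122065061) ranged from 26.5 to 31 CPM in every mouse but 1, a UVB male at 37.5 CPM. Its log2 fold change was 0.15 in males (-0.05 to 0.34, adjusted *p* = 0.189) and -0.03 in females (-0.19 to 0.12, adjusted *p* = 0.803). In males *Gclc* passed the test without no-UVB male replicate 4 (-0.14, adjusted *p* = 0.0718) and *Gclm* without UVB male replicate 4 (0.20, adjusted *p* = 0.088), and *Gclc* was at -0.03 (adjusted *p* = 0.795) without no-UVB male replicates 1 and 2. The intervals of both subunits lay within a log2 fold change of 0.34 on either side of 0, well short of the male rise of *Slc7a11*.

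*Gsr* encodes glutathione reductase, which returns oxidized glutathione to its reduced form. *Gsr* (ENSMUSG00000031584.17, chromosome 8 from 34142551 to 34188192) had 23.9 to 26 CPM in no-UVB males and 27.7, 25.8, 24.2 and 32.4 CPM in UVB males, and 22.3 to 26.7 and 24.7 to 29.8 CPM in no-UVB and UVB females. Its log2 fold change was 0.16 in males (-0.02 to 0.35, adjusted *p* = 0.131) and 0.08 in females (-0.12 to 0.28, adjusted *p* = 0.608). Without UVB male replicate 3 the male value was 0.22 and passed the test (adjusted *p* = 0.0566).

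*Gpx2* encodes an epithelial glutathione peroxidase. *Gpx2* (ENSMUSG00000042808.11, chromosome 12 from 76839107 to 76842326, minus strand) was low and uneven, at 1.86, 1.61, 2.21 and 2.52 CPM in no-UVB males and 2.15, 6.37, 3.48 and 2.14 CPM in UVB males. A pair of UVB males thus stood above all male controls and the other pair lay among them. No-UVB females had 4.63, 2.34, 1.37 and 1.01 CPM and UVB females 2.16, 1.84, 1.54 and 1.81 CPM. The male log2 fold change was 0.77 (SE 0.352, adjusted *p* = 0.0903), but its 95% interval of -0.01 to 1.55 reached 0, and without UVB male replicate 2 it was 0.35 (adjusted *p* = 0.253). The call was also lost without UVB male replicate 3 (adjusted *p* = 0.147) and without no-UVB male replicate 1 (0.168), 2 (0.183) or 3 (0.12), and without the first pair of these it was 0.57 (adjusted *p* = 0.376). In females it was -0.34 (-1.26 to 0.58, adjusted *p* = 0.623), and 0.22 without no-UVB female replicate 1. A processed pseudogene, *Gpx2-ps1*, has sequence close to this gene, and how reads were shared between them is not shown by the counts.

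*Srxn1* encodes sulfiredoxin, which repairs overoxidized peroxiredoxins. *Srxn1* (ENSMUSG00000032802.9, chromosome 2 from 151947436 to 151957687) had 29.7, 25.2, 32.3 and 32.7 CPM in no-UVB males and 66.6, 61.8, 56.8 and 64.9 CPM in UVB males. In females it had 24.3, 23.3, 25.3 and 25.9 CPM without UVB and 34.4, 40.6, 46.4 and 48.3 CPM after UVB. Both UVB groups lay wholly above their controls, and every UVB male lay above every UVB female. The gene rose 2.12-fold in males (95% interval 1.86 to 2.42), a log2 fold change of 1.09 (SE 0.0858, adjusted *p* = 3.45e-06). It rose 1.73-fold in females (1.47 to 2.03), a log2 fold change of 0.79 (SE 0.105, adjusted *p* = 0.000989). The difference of the responses was 0.28 (SE 0.142, 95% interval -0.02 to 0.58, adjusted *p* = 0.266), which did not pass the test, and 0.16 (adjusted *p* = 0.677) without no-UVB male replicates 1 and 2. This gene alone among the members was called in both sexes whichever mouse was left out, with male values of 1.02 to 1.14 and female values of 0.72 to 0.87. The male value was 0.97 (adjusted *p* = 2.08e-05) without no-UVB male replicates 1 and 2 together.

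*Txnrd1* encodes cytosolic thioredoxin reductase, which passes electrons from NADPH to thioredoxin. *Txnrd1* (ENSMUSG00000020250.12, chromosome 10 from 82669785 to 82733546) had 97.8 to 122 CPM in no-UVB males and a narrow 102 to 106 CPM in UVB males, inside the range of the controls. No-UVB females had 108, 120, 130 and 111 CPM and UVB females 101, 109, 109 and 94.2 CPM. Its log2 fold change was -0.05 in males (-0.21 to 0.11, adjusted *p* = 0.587) and -0.17 in females (-0.35 to 0.01, adjusted *p* = 0.192). The male value was -0.17 and passed the test (adjusted *p* = 0.0558) without no-UVB male replicates 1 and 2 together. Both enzymes serve the peroxiredoxin and thioredoxin cycle, yet the intervals of *Srxn1* and *Txnrd1* did not overlap in either sex.

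*Nqo1* encodes a quinone reductase and is widely read as a gauge of NRF2. *Nqo1* (ENSMUSG00000003849.9, chromosome 8 from 108113835 to 108129934, minus strand) had 8.75, 10.5, 11 and 13.9 CPM in no-UVB males and 11.6, 12.3, 13.4 and 12.7 CPM in UVB males. It had 10.5, 8.87, 9.58 and 10.1 CPM in no-UVB females and 9.05, 11.4, 12.1 and 11.2 CPM in UVB females. The UVB males all lay within the range of their controls, and a UVB female was within that of hers. The log2 fold change was 0.20 in males (-0.07 to 0.48, adjusted *p* = 0.2) and 0.17 in females (-0.07 to 0.42, adjusted *p* = 0.328). Without no-UVB male replicate 4 the male value was 0.33 and passed the test (adjusted *p* = 0.0314), and without replicates 1 and 2 of that group it was 0.04 (adjusted *p* = 0.844).

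*Hmox1* encodes haem oxygenase 1, which breaks haem down to biliverdin, iron and carbon monoxide. *Hmox1* (ENSMUSG00000005413.9, chromosome 8 from 75820241 to 75827217) had 72.7, 64.6, 88.5 and 92.7 CPM in no-UVB males and 107, 114, 94.2 and 83 CPM in UVB males. No-UVB females had 83.2, 75.1, 70.1 and 77.8 CPM and UVB females 78.3, 77.4, 74.7 and 75.9 CPM. In males 3 of the UVB mice stood above all controls and 1 lay among them, while the UVB females lay within their controls. *Hmox1* rose 1.27-fold in males (95% interval 1.04 to 1.55), a log2 fold change of 0.34 (SE 0.13, adjusted *p* = 0.0483). In females the log2 fold change was 0.01 (-0.14 to 0.16, adjusted *p* = 0.948), and the difference of the responses was 0.32 (adjusted *p* = 0.237). The male call was lost without UVB male replicate 1 (adjusted *p* = 0.115), UVB male replicate 2 (0.123) or no-UVB male replicate 1 (0.114). The controls of replicates 1 and 2 were the lowest males, and without both the log2 fold change was 0.16 (adjusted *p* = 0.289) and the difference of the responses 0.13 (adjusted *p* = 0.717). Macrophages, which also express this gene, had 13 marker genes with summed levels of 2060 to 2707 CPM in no-UVB males and 1718 to 2254 in UVB males, with 3 markers higher and 6 lower. In females the sums were 1832 to 3179 and 1655 to 2439 CPM, with 0 higher and 2 lower, and the part of these cells in the *Hmox1* values was not tested.

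*Osgin1* encodes an oxidative stress induced growth inhibitor. *Osgin1* (ENSMUSG00000074063.11, chromosome 8 from 120152470 to 120173000) had 6.42, 5.38, 9.65 and 9.11 CPM in no-UVB males and 12.2, 11.3, 12.1 and 10.5 CPM in UVB males, with no overlap. No-UVB females had 7.61, 9.66, 7.23 and 7.97 CPM and UVB females 13.4, 7.64, 12.4 and 13.3 CPM, of which replicate 2 lay among the controls. The gene rose 1.54-fold in males, a log2 fold change of 0.62 (SE 0.168, adjusted *p* = 0.0094), and 1.44-fold in females, a log2 fold change of 0.53 (SE 0.177, adjusted *p* = 0.0703). Its male call held in every fit that left out a mouse. No-UVB male replicates 1 and 2 were the lowest males, and without both the male value was 0.33 (adjusted *p* = 0.0493). Its female call was lost in 6 of the 8 such fits, namely without UVB female replicate 1 (adjusted *p* = 0.171), 3 (0.154) or 4 (0.161) and without no-UVB female replicate 1 (0.128), 3 (0.158) or 4 (0.131).

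Marker genes of skin cell types were measured alongside the members. All 7 suprabasal keratinocyte markers were higher in UVB males and 5 of 7 in UVB females. Of the 7 basal markers 3 were higher and 1 lower in UVB males, and 1 was higher and 1 lower in UVB females. The 4 stress keratins summed to 650 to 834 CPM in no-UVB males and 3329 to 6150 in UVB males, and to 528 to 1016 and 842 to 1506 CPM in no-UVB and UVB females. The 7 basal keratinocyte markers summed to 6361 to 9112 and 8641 to 12037 CPM in no-UVB and UVB males, and to 5338 to 8251 and 4747 to 7381 CPM in females. Of 12 neutrophil markers, *Ly6g*, *Ngp* and *Camp* had 0 counts in some mouse, and the sum reached at most 221 CPM. Of the 9 neutrophil markers tested in males 5 were higher and 2 lower after UVB (median log2 fold change 0.71), and of the 7 tested in females 2 were higher and 2 lower (median 0.09). In UVB males 6 of 7 fibroblast, 6 of 9 skeletal muscle and 3 of 7 adipocyte markers were lower and none was higher, and 4 of 7 sebaceous gland markers were higher and 1 was lower. In UVB females 1 fibroblast marker was higher and 1 lower, 3 sebaceous markers were higher, and no muscle or adipocyte marker passed the test. The part of these cell types in the rise of *Slc7a11*, *Srxn1* and *Osgin1* was not tested.

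Levels were compared between genes only per kilobase of annotated exon. *Hmox1* was highest in every group, at 45.3 ± 7.51 CPM per kb (mean ± SD of 4 mice) without UVB and 56.6 ± 7.78 after UVB among males, followed by *Txnrd1* at 14.6 to 16.5 CPM per kb over the group means. *Srxn1* moved up this order, from 7th in no-UVB males (3.19 ± 0.368 CPM per kb) to 3rd in UVB males (6.66 ± 0.461), and from 7th (2.63 ± 0.125) to 4th (4.52 ± 0.669) in females. *Nqo1*, *Gclm* and *Gsr* lay between 3.55 and 4.55 CPM per kb in all groups, with SDs of 0.129 to 0.781, and their order changed from group to group. *Gclc* was at 5.58 to 6.17 CPM per kb. *Osgin1* was at 1.61 to 2.46 CPM per kb and *Gpx2* at 0.571 to 1.1. *Slc7a11* was lowest of the 10 even in UVB males, at 0.466 ± 0.198 CPM per kb, from 0.0535 ± 0.0183 in their controls. With the length of the longest transcript in place of all exons, *Txnrd1* was at 28.5 to 32.3 CPM per kb and *Slc7a11* at 0.784 in UVB males and 0.09 in their controls, *Hmox1*, *Txnrd1* and *Slc7a11* kept their places as 1st, 2nd and 10th, and *Srxn1* moved from 6th to 3rd in males. The largest fold change thus belonged to the least expressed member.

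The responses of males and females were compared directly over all 16 mice. The difference was taken as the signed log2 response of males minus that of females, so that a value below 0 can be a larger fall or a smaller rise in males. Of the 10 members 1, *Slc7a11*, had a difference above 0 that passed the test and none had one below 0, against 2.75% and 4.25% of the 17406 genes tested. The shares of all genes depended on scaling, with 478 genes higher and 740 lower in this fit, 687 and 641 under DESeq2's size factors, and 782 and 624 when the 100 most abundant genes were left out of the scaling. They were 63 and 115 without no-UVB male replicates 1 and 2 (0.351% and 0.641% of all genes), with *Slc7a11* still called. By edgeR's test 3625 genes had an unadjusted *p* under 0.05 for this difference. Among the members the difference was above 0 for 9 of 10, with a median of 0.14 beside -0.02 over all genes, of which 47.9% lay above 0. Without the same pair it was above 0 for 7 of 10, with a median of 0.08. *Gpx2* had a difference of 1.10 with a wide interval (-0.14 to 2.35, adjusted *p* = 0.298). For *Nqo1*, *Gclc*, *Gclm*, *Txnrd1*, *Gsr* and *Osgin1* it lay between -0.01 and 0.17, and none passed the test. These 6 lay between -0.22 and 0.11 without that pair.

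Without UVB, none of the 10 members differed between males and females in edgeR's test, against 7.21% of all genes higher and 4.58% lower in males. At an unadjusted *p* under 0.05 there were 3857 such genes, among them *Srxn1*, whose log2 difference was 0.28 (SE 0.101, adjusted *p* = 0.11). It passed the test without no-UVB male replicate 2 (adjusted *p* = 0.057), without UVB female replicate 1 (0.0895), and without no-UVB male replicates 1 and 2 together (0.40, adjusted *p* = 0.0814). In that last fit 594 genes (3.31%) were higher and 243 (1.35%) lower in no-UVB males. After UVB, 3 members were higher in males than in females, *Slc7a11*, *Srxn1* and *Hmox1*, and none was lower, against 12.8% and 12.5% of all genes. Under upper quartile scaling the split of all genes in that comparison moved from 2222 higher and 2169 lower to 1659 higher and 2736 lower. *Slc7a11* was 5.45-fold higher in UVB males than in UVB females (95% interval 3.55 to 8.36, log2 difference 2.45, adjusted *p* = 0.000106). *Srxn1* was 1.47-fold higher (1.28 to 1.7, log2 difference 0.56, adjusted *p* = 0.00184) and *Hmox1* 1.3-fold higher (1.11 to 1.52, log2 difference 0.38, adjusted *p* = 0.0237). *Gpx2* had a log2 difference of 0.91 (95% interval 0.03 to 1.79, adjusted *p* = 0.142), which passed the test without no-UVB female replicate 1 (adjusted *p* = 0.0656) and by DESeq2's Wald test (0.96, adjusted *p* = 0.0777). For the 3 called members the values of UVB males and UVB females did not overlap, where 11.5% of all genes were higher and 9.76% lower without overlap. The same 3 members were called when no-UVB male replicates 1 and 2 were left out of the fit.

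The regulators of the pathway were measured alongside, and changes in this and the following lists are log2 fold changes. *Nfe2l2* rose in males from 84.7 ± 5.74 to 108 ± 8.72 CPM (SD, n = 4), a log2 fold change of 0.37 (adjusted *p* = 0.00109). In females it rose from 83.7 ± 4.96 to 97.5 ± 7.92 CPM, a log2 fold change of 0.23 (adjusted *p* = 0.0738). *Keap1* had log2 fold changes of 0.01 (95% interval -0.12 to 0.14, adjusted *p* = 0.942) and 0.02 (adjusted *p* = 0.814). Of the 14 regulators, 5 rose and 4 fell in males, and 3 rose and 2 fell in females (2 and 3 under upper quartile scaling), with medians of 0.05 and 0.11. Over all genes, 29.0% rose and 30.5% fell in males, and 12.8% and 10.6% in females, which is the background for these counts and for those of the lists that follow. When any single mouse was left out, 2 to 3 regulators fell in males, with 2 without UVB male replicate 1, 2 or 4. In females 2 to 3 rose and 2 to 3 fell over such fits. *Nfe2l3*, a relative of NRF2, rose by 1.01 in males and 0.69 in females, and *Maff*, a small MAF partner, by 0.55 and 0.69. The repressor *Bach1* rose by 0.34 and the ligase scaffold *Cul3* by 0.26 in males. *Bach2*, the relative of *Bach1*, fell by 0.61 in males and 0.69 in females, and *Btrc*, which encodes another adaptor for NRF2 destruction, fell by 0.82 and 0.52. *Mafk* fell by 0.20 and *Sqstm1*, whose protein can bind KEAP1, by 0.14 in males. With no-UVB male replicates 1 and 2 left out, the male values were -0.09 for *Mafk* (adjusted *p* = 0.43), 0.16 for *Cul3* (adjusted *p* = 0.0806), 0.83 for *Maff* (adjusted *p* = 0.000234) and -0.22 for *Sqstm1* (adjusted *p* = 0.036). None of the 14 differed in response between the sexes in edgeR's test, and DESeq2's Wald test called 1 higher and 1 lower in males. In edgeR's test 1 higher and 2 lower were called without UVB female replicate 3, 1 lower without no-UVB female replicate 1 and 1 higher without no-UVB female replicate 4.

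Other known NRF2 targets numbered 42, of which 38 could be tested in each sex. In males 16 rose and 13 fell, where 29.0% of all genes rose and 30.5% fell. In females 8 rose and 1 fell (5 and 2 under upper quartile scaling), where 12.8% and 10.6% of all genes did. Their median log2 fold change was 0.13 in males and 0.11 in females. The glutathione transferase *Gsta4* rose from 5.88 to 22.1 CPM in males (log2 fold change 1.92, adjusted *p* = 2.46e-06) and from 5.58 to 9.48 CPM in females (0.77, adjusted *p* = 0.00257). *Mgst2*, a microsomal transferase, rose by 1.45 in males and 0.46 in females (adjusted *p* = 0.0785). The carbonyl reductase *Cbr3* rose by 1.11 in males and 0.51 in females, and the aldo-keto reductase *Akr1b8* by 0.80 in males. In females *Gsta3* rose by 0.67 and *Mgst1* by 0.60, and *Mgst1* also rose in males, by 0.29 (adjusted *p* = 0.0177). The 16 genes include *Gsta1*, named after its values were seen, which passed the low-count filter through the UVB males (1.41 CPM, against 0.264 CPM in their controls) and was not tested in females. Lower in males were the exporter *Abcc4* (log2 fold change -0.62), *Lpin1* (-0.55), *Pir* (-0.53) and *Gstm1* (-0.44), and *Abcc4* also fell in females (-0.26). The *Lpin1* value was -0.15 (adjusted *p* = 0.408) without no-UVB male replicates 1 and 2.

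In this list the male minus female difference was above 0 for 5 of 39 genes and below 0 for 3 (4 and 4 under upper quartile scaling), where 2.75% and 4.25% of all genes passed in these directions. *Gsta4* (1.14, adjusted *p* = 0.00976), *Mgst2* (0.98, adjusted *p* = 0.0253), *Cbr3* (0.58, adjusted *p* = 0.0304), *Akr1b8* (0.51, adjusted *p* = 0.0814) and *Abcc3* (0.44, adjusted *p* = 0.0988) had a difference above 0. *Gstm1* (-0.57, adjusted *p* = 0.0456), *Ephx1* (-0.50, adjusted *p* = 0.0853) and *Abcc4* (-0.37, adjusted *p* = 0.0868) had one below 0. Of these *Abcc4* fell in both sexes, by more in males, while *Gstm1* and *Ephx1* fell in males and had log2 fold changes of 0.11 (adjusted *p* = 0.499) and 0.22 (adjusted *p* = 0.259) in females. Without no-UVB male replicates 1 and 2, 1 gene passed above 0, *Gsta4* (0.99, adjusted *p* = 0.0586), and 0 below, where 0.351% and 0.641% of all genes did. Of the calls lost, the differences were then 0.77 for *Mgst2*, 0.46 for *Cbr3*, 0.38 for *Akr1b8* and 0.49 for *Abcc3*. They were -0.64 for *Gstm1*, -0.52 for *Ephx1* and -0.43 for *Abcc4*. Without UVB female replicate 1 or UVB male replicate 1, 0 passed below 0.

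**Figure D3:**
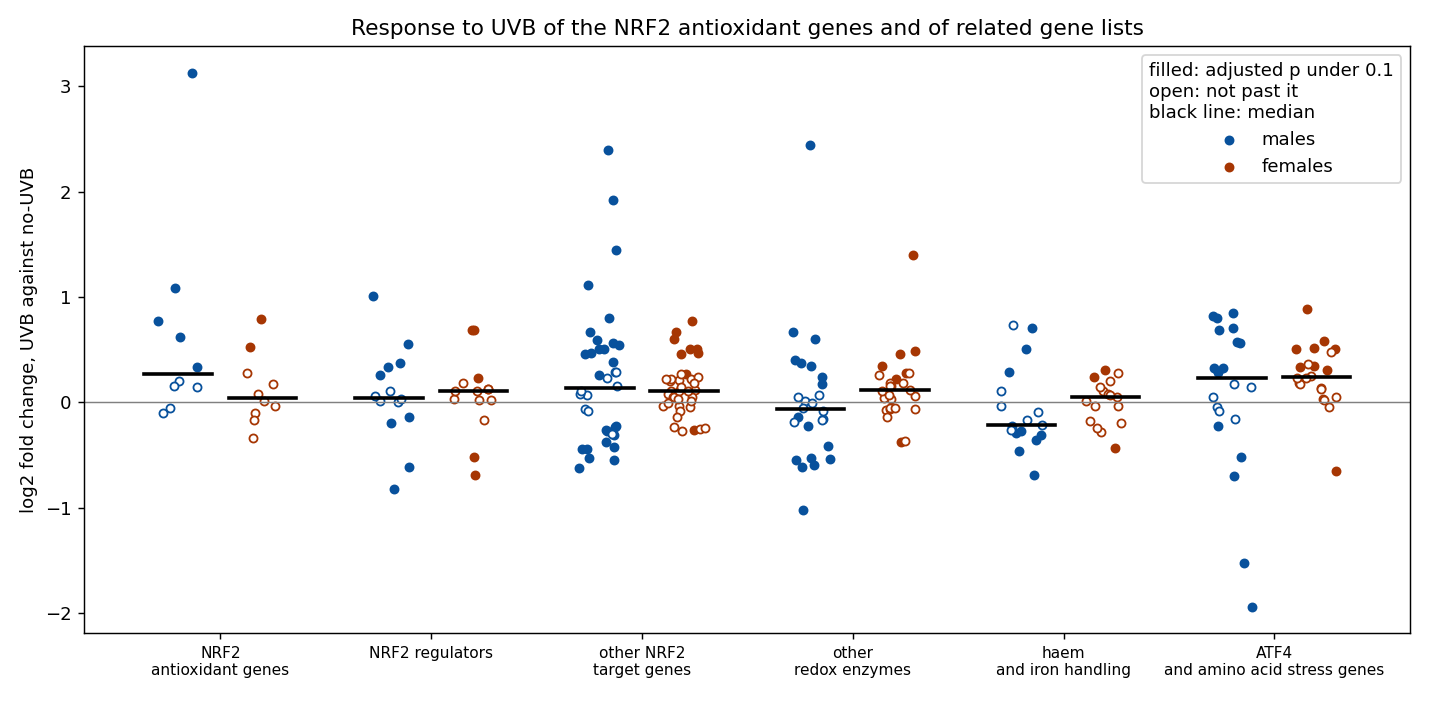
Fitted log2 fold change for UVB against no-UVB (y axis) of the NRF2 antioxidant genes and of 5 related gene lists, with males and females side by side. Each point is a gene, filled where its adjusted p was under 0.1, and black lines are medians; the members' medians are 0.27 and 0.04, and genes of every list lie on both sides of 0.

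Of 26 other redox enzymes, 8 rose and 9 fell in males (7 and 13 under upper quartile scaling), and 6 rose and 1 fell in females, where 29.0% and 30.5% of all genes rose and fell in males and 12.8% and 10.6% in females. The glutaredoxin *Glrx* rose from 35.5 to 189 CPM in males (log2 fold change 2.44, adjusted *p* = 2.77e-06) and from 39 to 102 CPM in females (1.40, adjusted *p* = 0.00115). The difference of its responses, males minus females, was 1.03 (adjusted *p* = 0.0418), or 0.85 (adjusted *p* = 0.212) without no-UVB male replicates 1 and 2. Of the 26 genes *Glrx* was the 1 that passed above 0 and 3 passed below 0, where 2.75% and 4.25% of all genes passed in these directions. Those below 0 were the peroxiredoxin *Prdx6* (-0.60, adjusted *p* = 0.0193) and the glutathione peroxidases *Gpx4* (-0.41, adjusted *p* = 0.0486) and *Gpx8* (-0.59, adjusted *p* = 0.0795), and none of the 4 was called without that pair of mice. The differences without the pair were -0.46 for *Prdx6*, -0.43 for *Gpx4* and -0.47 for *Gpx8*. The number below 0 was 1 without UVB female replicate 1, UVB male replicate 1 or no-UVB male replicate 2, and 6 without UVB female replicate 3. *Prdx5*, a peroxiredoxin, rose by 0.60 and 0.46, *Glrx3* by 0.40 and 0.49, and *Txnrd3* by 0.67 in males, while *Gpx4* rose by 0.35 in females. The extracellular glutathione peroxidase *Gpx3* fell from 885 to 430 CPM in males (log2 fold change -1.02). *Msra*, *Gpx7* and *Sesn1* fell by 0.61, 0.59 and 0.55 in males, and *Msra* by 0.38 in females. Leaving out each mouse gave 0 to 1 falls in females, so the female call of *Msra* was lost in some of these fits. The *Sesn1* value was -0.19 (adjusted *p* = 0.0749) without no-UVB male replicates 1 and 2.

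Genes that handle haem and iron around *Hmox1* numbered 17, of which 3 rose and 7 fell in males and 2 rose and 1 fell in females (0 and 2 under upper quartile scaling). When any single mouse was left out, 0 to 1 rose in females and 3 to 5 in males, with 5 without no-UVB male replicate 4. The iron exporter *Slc40a1* rose by 0.71 in males and 0.31 in females, *Slc11a2* by 0.29 and 0.24, and the transferrin receptor *Tfrc* by 0.51 in males. The ferritin heavy chain *Fth1*, which is also in the NRF2 target list, fell by 0.31 in males, and its value was -0.24 (adjusted *p* = 0.104) without no-UVB male replicates 1 and 2. *Steap3*, *Slc11a1* and *Lrp1* fell by 0.69, 0.46 and 0.36 in males, and *Lrp1* by 0.43 in females. In this list the male minus female difference passed for 1 gene of 17, *Fech*, which encodes the last enzyme of haem synthesis (-0.28, adjusted *p* = 0.0985), against 4.25% of all genes below 0. The number below 0 was 3 under upper quartile scaling, 0 to 4 when each mouse was left out and 0 without no-UVB male replicates 1 and 2. The *Fech* difference was -0.23 (adjusted *p* = 0.35) without that pair. The red blood cell markers, a measure of blood in the tissue, passed the test in neither direction in either sex.

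*Slc7a11* is also a known target of ATF4, the transcription factor of amino acid stress. Of 22 ATF4 and amino acid stress genes, 11 rose and 5 fell in males, and 8 rose and 1 fell in females, with medians of 0.23 and 0.24. Beside these counts, 29.0% and 30.5% of all genes rose and fell in males and 12.8% and 10.6% in females. Without no-UVB male replicates 1 and 2, 2 genes of the list fell in males. Leaving out each mouse gave 0 to 1 falls in females, so the female fall was lost in some of these fits. The amino acid transporter *Slc7a5* rose by 0.85 and 0.89 in males and females, the asparagine synthetase *Asns* by 0.82 and 0.51, and *Trib3* by 0.71 and 0.58. *Slc7a1* rose by 0.80 in males, and *Nupr1* by 0.52 in females. *Atf3* fell by 1.94 in males and 0.65 in females, and *Ddit4*, *Stc2* and *Slc1a5* fell by 1.52, 0.70 and 0.52 in males. The male falls of *Atf3* and *Stc2* were not called without no-UVB male replicates 1 and 2, and that of *Ddit4* was smaller. Without both the male log2 fold changes were -0.34 for *Atf3* (adjusted *p* = 0.61), -0.53 for *Ddit4* (adjusted *p* = 0.00474), -0.16 for *Stc2* (adjusted *p* = 0.65) and -0.48 for *Slc1a5* (adjusted *p* = 0.0565). No gene of this list had a male minus female difference above 0 that passed edgeR's test or DESeq2's Wald test. In edgeR's test 2 passed below 0, against 4.25% of all genes, *Nupr1* (-0.61, adjusted *p* = 0.0497) and *Vldlr* (-0.46, adjusted *p* = 0.0533). The count of 2 was 0 without UVB female replicate 1 or UVB male replicate 1, 4 without UVB female replicate 3 or no-UVB male replicate 3, 1 without no-UVB male replicate 2, and 1 (*Nupr1*) without no-UVB male replicates 1 and 2 together. Of the same 22 genes, 9 were higher in no-UVB males than in no-UVB females, where 7.21% of all genes were, and 3 (*Atf4*, *Nupr1* and *Vldlr*) without that pair, where 3.31% were. Among the controls *Atf3* was at 50.9 ± 39.3 CPM in males and 14.7 ± 3.58 in females (mean ± SD of 4 mice), and *Ddit4* at 157 ± 90 and 72.5 ± 19.4 CPM. Replicates 3 and 4 of the no-UVB males had 14.5 and 19.4 CPM of *Atf3*, within the 11.9 to 19.9 CPM of the no-UVB females. Without the pair the log2 difference between the controls was 0.20 for *Atf3* (adjusted *p* = 0.841) and 0.13 for *Ddit4* (adjusted *p* = 0.855).

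For the members with the largest responses, the genes of most similar pattern over the 16 mice were sought among 15106 genes, by the root mean square difference of centred log2 CPM. Nearest to *Slc7a11* were *Aqp3* (0.38), which encodes a water and glycerol channel of keratinocytes, *Fetub* (0.47) and *Rptn* (0.47), which encodes a protein of the cornified layer. The values of *Slc7a11* itself varied by 1.21 on this scale. Mean levels rose with UVB in males from 88 to 509 CPM for *Aqp3*, from 92.9 to 1135 for *Rptn* and from 0.452 to 4.68 for *Fetub*. In females *Aqp3* went from 94 to 155 CPM (adjusted *p* = 0.104). Nearest to *Srxn1*, whose own value was 0.53, were *6430548M08Rik* (0.12), *Rrp12* (0.12) and *Tuba4a* (0.13), all of them higher after UVB in both sexes. *Rrp12* serves ribosome maturation and *Tuba4a* encodes an alpha-tubulin.

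**Figure D4:**
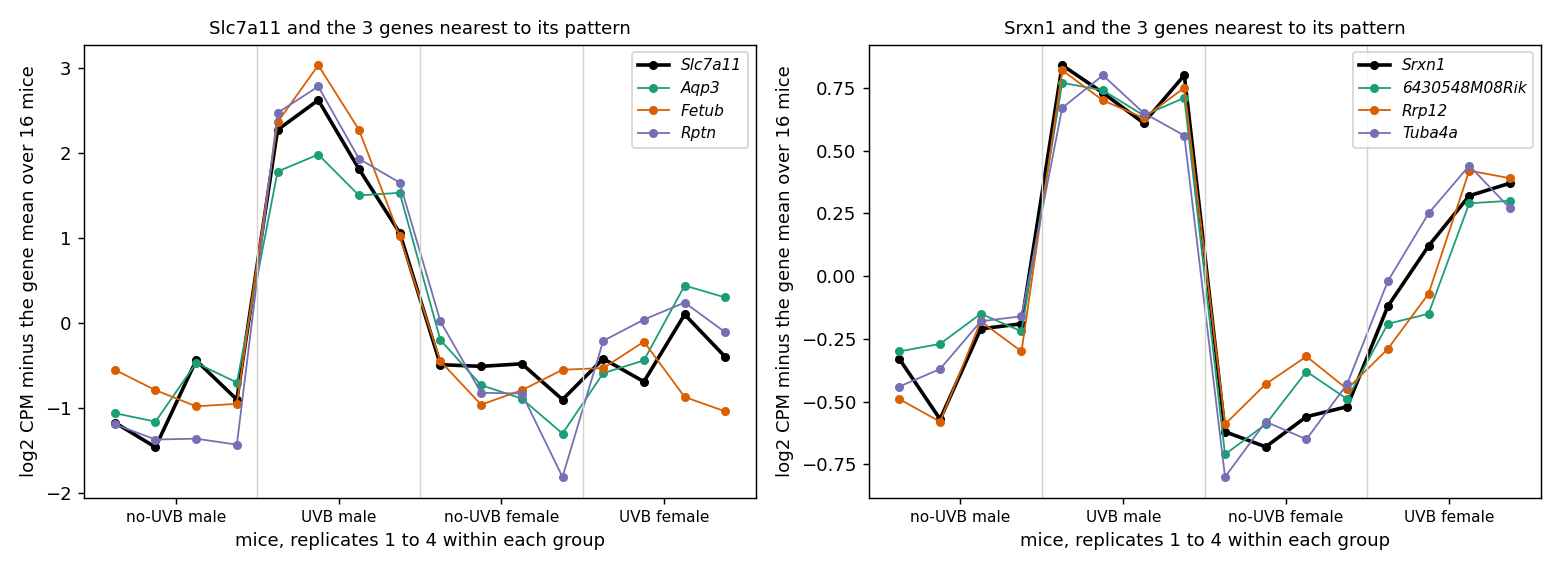
Centred log2 CPM (y axis) in each of the 16 mice (x axis, replicates 1 to 4 within each group) of *Slc7a11* and of *Srxn1*, each with the 3 genes nearest to its pattern. *Slc7a11* and its neighbours peak in the UVB males, and *Srxn1* and its neighbours are higher after UVB in both sexes.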

How the data were processed

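RNA of whole dorsal skin was sequenced by the authors from 16 mice, 4 in each of 4 groups, after poly(A) enrichment and directional library preparation. The authors used STAR on GRCm39 and deposited a table of raw gene counts per mouse, whole numbers without normalization. STAR's version and annotation are not given in the sources used here. The column of the strand made by the kit was used. The opposite strand had 3.63 to 4.23% of strand-assigned gene reads. Identifiers were matched to GENCODE M39, which holds 54749 of 55359. Rows that name no gene were left out, which kept 70.08 to 79.22% of each library. No mouse was left out, and pairs of mice within a group differed by more than sampling noise (chi-square per degree of freedom 10.1 to 107).

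Counts were tested over all genes with edgeR 4.0.16 in R 4.3.3 (filterByExpr, TMM, robust quasi-likelihood test, Benjamini-Hochberg adjusted p under 0.1), within each sex for the response to UVB and over 16 mice for the difference of responses and between the sexes. SE is the log2 fold change over the root of F, and intervals are 95% by the t distribution. CPM are TMM scaled over 16 mice. Levels per kb use the union of exons. DESeq2 1.42.0 served as an alternative, and tables and plots were made with pandas 2.3.3 and matplotlib 3.10.9 (Python 3.11.15). The procedure was tested on simulated data. All members were named. Of the regulator list all genes past the threshold were named, with *Nfe2l2* and *Keap1*. Of each other list the 4 largest rises and 4 largest falls per sex with a mean of at least 1 CPM were named, and for the members of largest response the 3 nearest genes (prior count 2). The interaction calls of lists and *Slc3a2*, *Gsta1* and *Gpx2-ps1* were named after their values were seen. The members and all lists were chosen with earlier results of these data known. The labels do not name cages or litters, so p-values measure the spread between these mice.

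Alternatives were counts without regard to strand, DESeq2 size factors, upper quartile scaling, TMM without the 100 most abundant genes, DESeq2's Wald test, a filter of 1 count in any mouse or of 10 counts in each mouse, a block for the replicate number, all 16 mice in a single fit, the longest transcript as length, and leaving out each mouse. For the list counts they were added after seeing the data, as was leaving out no-UVB male replicates 1 and 2 together.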

Additional observations from a re-analysis of the deposited data

Results flagged for a closer look

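*Slc7a11* differed between the sexes in its response to UVB, by 2.84 on the log2 scale in edgeR's test of the interaction (adjusted p = 0.00739). In the no-UVB females, replicate 4 had 0.858 CPM of *Slc7a11*, apart from the other 3 mice at 1.15 to 1.18 CPM. Its gap to the nearest of them was 0.908 of the range of the group, above the 95% critical value for 4 mice. This was the 1 such mouse among 40 pairs of member and group, where chance gives about 1 in 20.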

How the results depend on the processing

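The calls of *Slc7a11* (male response, interaction, UVB males against UVB females), of *Srxn1* (both responses, UVB males against UVB females) and of *Osgin1* in males were made under every alternative. Of the 5 members higher in males, 3 (*Srxn1*, *Slc7a11*, *Osgin1*) were called under upper quartile scaling, where 1 (*Gclc*) was lower (log2 fold change -0.17, adjusted p = 0.0401). Leaving out each mouse gave 3 to 6 higher and 0 to 1 lower in males, 1 to 2 higher in females, and 0 to 1 (*Srxn1*) higher in no-UVB males than in no-UVB females, and 3 to 4 (the 4th *Gpx2*) higher in UVB males than in UVB females. *Gpx2* in males was also lost without regard to strand (adjusted p = 0.103), with every gene of at least 1 count (0.181) and in a single fit of 16 mice (0.144). The longest transcript in place of all exons moved 30 levels per kb by more than 1 SD. With each mouse left out, the other NRF2 targets gave 5 to 8 rises in females and 3 to 5 differences of response above 0 and 0 to 5 below, the redox enzymes 1 to 6 below (3 with all mice), and the ATF4 genes 3 to 6 falls in males. Without no-UVB male replicates 1 and 2 together, 3 members were higher and 1 (*Txnrd1*) lower in males, and 1 (*Srxn1*) was higher in no-UVB males than in no-UVB females. The causes were not tested.

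Deviations of mice of the same replicate number had correlations of -0.123 to 0.217 over 16 pairs. These gave no sign of strong pairing, but they cannot exclude a shared litter or day, which the labels do not name. With the replicate block, 3 members were higher in males (*Hmox1* adjusted p = 0.141, *Gpx2* 0.135), 1 was higher in females (*Osgin1* 0.151) and 1, *Srxn1*, was higher in no-UVB males than in no-UVB females. *Osgin1* in UVB males against UVB females became 0.00 with the block.

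Log2 values near 0 that turned sign, none past the threshold, were as follows. Under upper quartile scaling, *Hmox1* in females was -0.03, the *Nqo1* interaction -0.00 and *Txnrd1* in UVB males against UVB females -0.03. The *Gclc* interaction was 0.00 without regard to strand, 0.02 with DESeq2 size factors, 0.03 with TMM without the most abundant genes and 0.03 by DESeq2's Wald test. *Osgin1* in UVB males against UVB females was 0.01 under each of the last 3. Leaving out each mouse gave -0.09 to 0.02 for *Txnrd1* in males. In females it gave -0.03 to 0.05 for *Hmox1*, -0.06 to 0.00 for *Gclm* and -0.58 to 0.22 for *Gpx2*. For the interaction it gave -0.08 to 0.14 for *Nqo1*, -0.07 to 0.06 for *Gclc*, -0.02 to 0.14 for *Gsr* and -0.09 to 0.22 for *Osgin1*. For the controls of each sex it gave -0.02 to 0.15 for *Hmox1*, -0.09 to 0.03 for *Gclc*, -0.05 to 0.01 for *Gclm*, -0.08 to 0.01 for *Gsr*, -0.23 to 0.05 for *Osgin1* and -0.44 to 0.36 for *Gpx2*. For UVB males against UVB females it gave -0.09 to 0.02 for *Gclc*, -0.03 to 0.04 for *Txnrd1*, -0.03 to 0.13 for *Gsr* and -0.17 to 0.06 for *Osgin1*. Without no-UVB male replicates 1 and 2 together, the interaction was -0.16 for *Nqo1*, 0.05 for *Gclc*, -0.03 for *Txnrd1* and -0.22 for *Osgin1*, and the difference of the controls was 0.04 for *Gclm*, 0.04 for *Txnrd1*, 0.03 for *Gsr*, 0.21 for *Osgin1* and 0.02 for *Gpx2*. *Slc7a11* rested on 12 to 42 reads per mouse outside the UVB males and *Gpx2* on 20 to 107 in all, which limits both.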
